A study of Caenorhabditis elegans with 2 samples.

Results

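The 10 genes that encode the dosage compensation complex of the nematode Caenorhabditis elegans were examined for peaks of the nuclear hormone receptor NHR-237 in embryos. The genes were taken by name: sdc-1, sdc-2, sdc-3, dpy-21, dpy-26, dpy-27, dpy-28, dpy-30, mix-1 and capg-1. All 10 are among the 19973 nuclear protein-coding genes of the WBcel235 annotation, 2 of them on the X chromosome and 8 on autosomes. The rule for membership is the gene name, but the genes, like the lists and motifs used further on, were picked with earlier results of these data known.

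The dosage compensation complex binds both X chromosomes of XX hermaphrodites and lowers their transcription, so that X-linked output is similar to that of XO males. SDC-2, which is made in XX embryos only, recruits the other subunits to X together with SDC-3 and DPY-30. The core of the complex is a specialised condensin, a ring-shaped machine that folds chromosomes, and several of its subunits also serve in mitotic condensin. The complex assembles on X during embryogenesis, the stage sampled here.

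The data were peak lists from chromatin immunoprecipitation followed by sequencing of whole embryos of mixed stage, both sexes pooled, with 2 biological replicates in 1 group. The strain, OP228, has the genotype unc-119(ed3) III; wgIs228, in which wgIs228 is the insertion that provides eGFP-tagged nhr-237. Both samples carry the tagged receptor, the labels name nhr-237 as the antibody target, and samples without the tag were not analysed here. Whole embryos mix all cell types, so no signal can be placed in a given cell type. On build ce11, 10872 peaks were listed for replicate 1, 30000 for replicate 2 and 30000 in the pooled list, which was called on both replicates. These 3 lists include background regions and served as input to the irreproducible discovery rate (IDR) procedure, whose output, the IDR list, held 1626 peaks. The signal value of a peak is in the units of the authors' peak caller and was compared only within a list, where rank 1 is the highest. Read depth is unknown, and a gene without a summit in a list is one at which no region was listed, which is not a measurement of 0.

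The sequences at the 4 IDR peaks closest to members are printed first because the results turn on them, and that of the tasp-1 peak upstream of dpy-28 is added. Each runs 5′ to 3′ on the strand of the named gene and covers the 101 bases centred on the summit. Capitals mark matches to any of 8 short motifs that are described further on, and a sequence without capitals held none of them. They were read from the RefSeq genome of build WBcel235, where they lie at chrX:11522262-11522362 (plus strand), chrV:12191091-12191191 (plus strand), chrII:10824163-10824263 (plus strand), chrIII:3820262-3820362 (minus strand) and chrIII:10759199-10759299 (plus strand), in the order of the lines.
sdc-2: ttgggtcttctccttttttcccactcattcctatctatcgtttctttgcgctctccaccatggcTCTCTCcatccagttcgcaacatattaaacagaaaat
dpy-30: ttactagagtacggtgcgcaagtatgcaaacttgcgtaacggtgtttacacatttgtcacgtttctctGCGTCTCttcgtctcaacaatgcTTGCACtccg
mix-1: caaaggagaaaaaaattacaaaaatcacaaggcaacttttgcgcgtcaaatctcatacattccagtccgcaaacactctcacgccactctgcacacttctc
dpy-27: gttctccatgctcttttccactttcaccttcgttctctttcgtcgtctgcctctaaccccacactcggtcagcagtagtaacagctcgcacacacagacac
tasp-1: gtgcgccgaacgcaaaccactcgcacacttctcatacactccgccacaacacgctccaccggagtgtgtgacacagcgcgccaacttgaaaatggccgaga

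IDR summits were present in the promoters of 3 of the 10 members, sdc-2, dpy-30 and mix-1. The promoter window covered 500 bp before and 200 bp after any annotated transcript start. Among all 19973 protein-coding genes, 1338 had an IDR promoter summit, or 6.70%. The members' count was 4 when the window was widened to 1000 bp upstream, which added dpy-27, against 8.08% of all genes. It was 1 (mix-1) when the window was narrowed to 300 bp upstream and 100 bp downstream, against 5.12%. Among the 813 IDR peaks of higher signal it was 1 (sdc-2), against 3.54%. The IDR summits of the 3 members were all upstream of the transcript start. With 10 genes chosen by name and a single group of samples, these counts are descriptions and no test was run on them.

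The members fell into 4 classes by the lists that held a promoter summit. The lowest IDR signal was 72.59 and the highest pooled-list signal outside the IDR list was 72.56. Being in the IDR list thus amounted to a cut on the pooled signal and adds no separate criterion to it. The genes sdc-2, dpy-30 and mix-1 had one in all 4 lists, as did 6.56% of all genes. The genes sdc-1 and sdc-3 had one in both replicate lists and the pooled list but not in the IDR list, as did 8.40% of all genes. The genes dpy-21 and capg-1 had one in the replicate 2 and pooled lists only, as did 10.7% of all genes. The genes dpy-26, dpy-27 and dpy-28 had none in any list, as did 58.6% of all genes. Counted by list, 5 members had a promoter summit in replicate 1, against 19.0% of all genes. In replicate 2 and in the pooled list 7 members had one, against 32.7% and 33.1% of all genes.

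**Figure D1:**
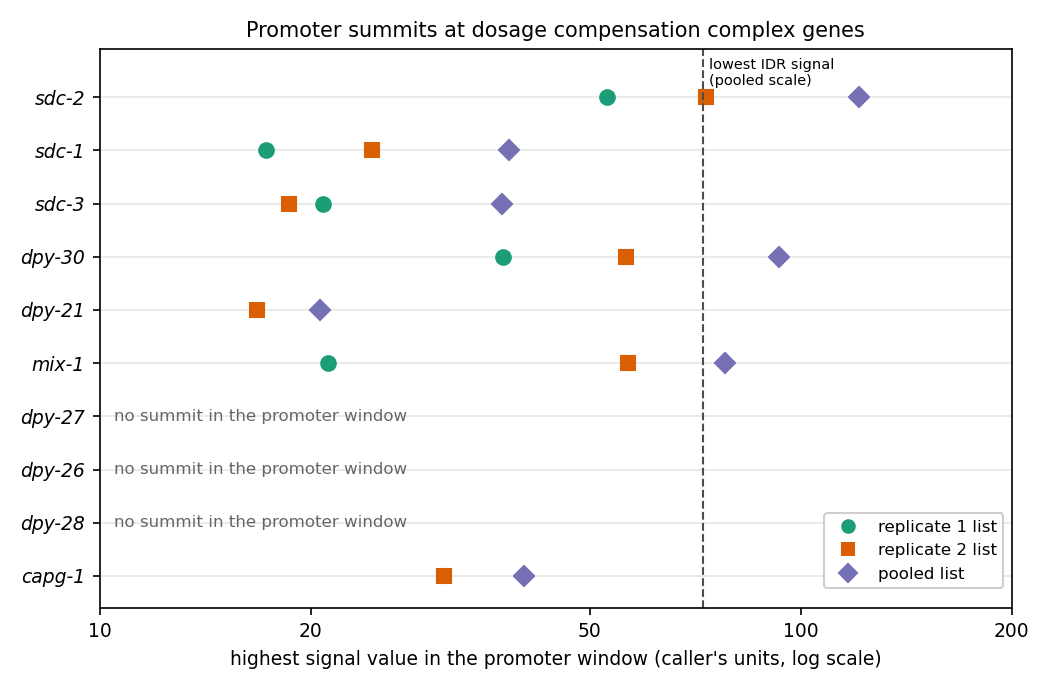
Highest signal value in the promoter window of each member (rows) in the replicate 1, replicate 2 and pooled lists, on a log axis in the caller's units; the dashed line is the lowest signal of the IDR list, 72.6, and applies to the pooled values. The pooled values of sdc-2, dpy-30 and mix-1 lie above the line, which restates that their peaks are in the IDR list. Those of sdc-1, sdc-3, dpy-21 and capg-1 lie below it, and the other members have no summit in the window.

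The strongest promoter peak of a member was at sdc-2 (WBGene00004746, X, 11522707 to 11533450, plus strand), the gene of the XX-specific recruiter. Its IDR peak, at 11522114 to 11522509, had a signal of 121, ranked 624 of 1626 and peaked 395 bp upstream of the transcript start, outside any protein-coding gene. In replicate 1 the promoter summit had a signal of 53.0 (rank 793) and in replicate 2 the higher of 2 summits had 73.3 (rank 471). Both of these carried the highest −log10 q of their list, 2.18 in replicate 1 and 3.28 in replicate 2. Both lists held many peaks of higher signal, so this value does not place sdc-2 at the top of either list. In replicate 2 that value was shared with the strongest promoter summits of dpy-30 (rank 851) and mix-1 (rank 836), so it does not single out sdc-2. The summits were 398 bp upstream in replicate 1 and 460 bp upstream in replicate 2, where a weaker one followed at 256 bp upstream with a signal of 24.5. No protein-coding gene other than sdc-2 had this IDR summit in its promoter window. Among the 248 IDR peaks on X the sdc-2 peak ranked 111, and among the 102 of them in promoters it ranked 42.

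The other X-linked member, sdc-1 (WBGene00004745, X, 16275763 to 16282534, plus strand), encodes a zinc-finger protein of the complex and had weaker promoter summits. Its signal was 17.3 in replicate 1 (rank 9636 of 10872), 24.5 in replicate 2 (rank 4321 of 30000) and 38.4 in the pooled list (rank 5520 of 30000). The summits coincided closely, at 284, 285 and 273 bp upstream. The −log10 q of the sdc-1 summit was 0.034 in replicate 1, against a list maximum of 2.18, and 0.48 in replicate 2, against a maximum of 3.28. The nearest IDR summit was 65.9 kb away.

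The autosomal gene sdc-3 (WBGene00004747, V, 15039148 to 15048207, minus strand) encodes a second zinc-finger protein, which acts with SDC-2 in recruitment. Its promoter signal was 20.8 in replicate 1 (rank 5497), 18.6 in replicate 2 (rank 9113) and 37.5 in the pooled list (rank 5854). The −log10 q was low, 0.15 in replicate 1 and 0.16 in replicate 2. The replicates placed the summit differently, 282 bp upstream in replicate 1 and 15 bp upstream in replicate 2. So of the 3 sdc genes, sdc-2 alone had an IDR peak, and the pooled signals of sdc-1 and sdc-3 lay close to each other.

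DPY-30 belongs both to the dosage compensation complex and to COMPASS, the methyltransferase complex that acts on lysine 4 of histone H3. Its gene (WBGene00001088, V, 12191519 to 12192385, plus strand) is the shortest of the members at 0.867 kb. The IDR peak at 12190943 to 12191338 had a signal of 93.0, ranked 1058 and peaked 378 bp upstream. The nearest replicate summits had a signal of 37.7 in replicate 1 (rank 1526, 376 bp upstream) and 56.3 in replicate 2 (rank 851, 373 bp upstream). Replicate 2 had a weaker promoter summit 168 bp upstream, with a signal of 12.8 (rank 21941). A further summit lay 822 bp downstream of the dpy-30 start in the pooled list, with a signal of 56.6 (rank 2435). It was also listed in replicate 2 (signal 35.2, rank 2017) and not in replicate 1. That position is near the 3′ end of dpy-30 and 66 bp downstream of the start of rnp-1 (WBGene00004384), which encodes an RNA-binding protein and whose annotation overlaps that of dpy-30 on the same strand.

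The gene dpy-21 (WBGene00001080, V, 17936282 to 17949193, minus strand) encodes the demethylase of the complex, which acts on lysine 20 of histone H4. Its promoter summit had a signal of 16.8 in replicate 2 (rank 11927), 83 bp downstream of a transcript start, and 20.7 in the pooled list (rank 26860), 104 bp downstream. Replicate 1 had no summit in the window. Both positions were in a coding exon. The −log10 q of the replicate 2 summit was 0.11, and the pooled signal was close to the lowest of that list, 19.5. An IDR peak lay farther upstream, with a signal of 116 (rank 675) at 2.20 kb from the nearest dpy-21 start, outside the window. The next protein-coding gene upstream, Y59A8B.24 on the opposite strand, begins 2755 bp from dpy-21, so this summit was nearer to Y59A8B.24.

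**Figure D2:**
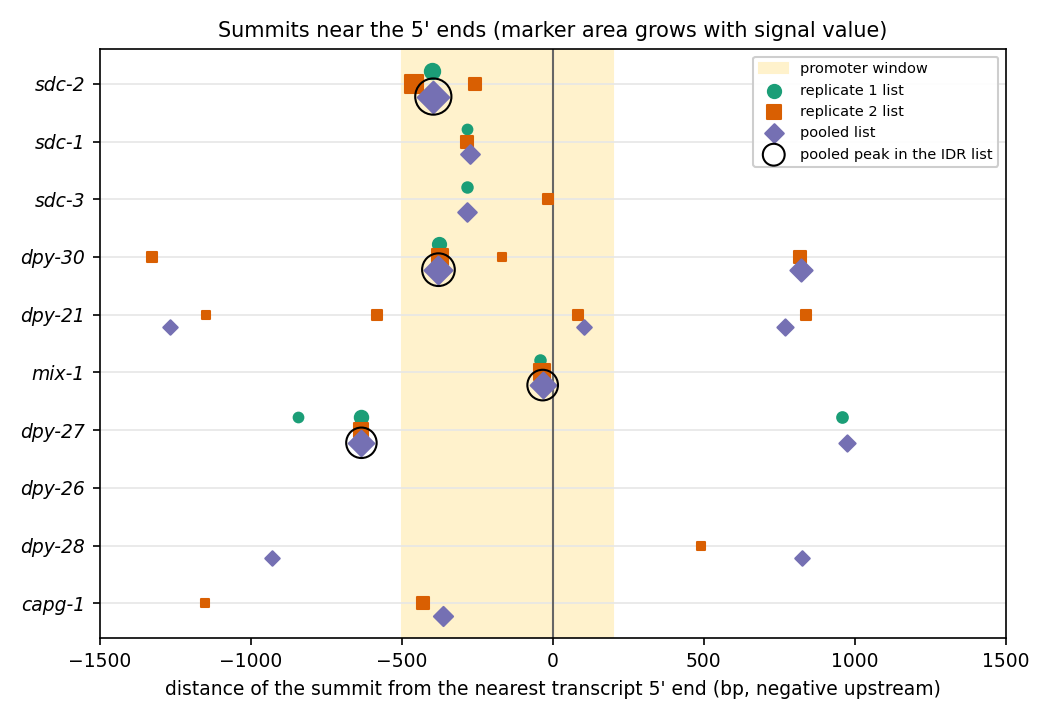
Distance of each listed summit from the nearest transcript start of each member (rows), in bp with upstream negative; marker shape and colour give the list, marker area grows with the signal value, circles mark pooled peaks that are in the IDR list and the shaded band is the promoter window. The circled summits of sdc-2, dpy-30 and mix-1 lie in the band, at 395, 378 and 33 bp upstream, and that of dpy-27 lies beyond it at 633 bp upstream.

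The condensin core was represented by 5 members, of which mix-1 alone had an IDR promoter summit. MIX-1 is an SMC protein, the ATPase class that forms the arms of the ring, and it serves in mitotic and meiotic condensins as well as in the dosage compensation complex. At mix-1 (WBGene00003367, II, 10824246 to 10841424, plus strand) the IDR peak at 10824015 to 10824410 had a signal of 78.0, ranked 1451 and peaked 33 bp upstream of the start. The replicates differed here: the signal was 21.2 in replicate 1 (rank 5252, −log10 q 0.16) and 56.7 in replicate 2 (rank 836, −log10 q 3.28). The summits were 41 bp upstream in replicate 1 and 35 bp upstream in replicate 2, so the positions coincided although the ranks did not. Of the 1604 nuclear IDR peaks that a replicate 1 peak overlapped, 9 ranked lower in replicate 1 than the mix-1 peak. Among the 1626 highest peaks of replicate 1 alone, mix-1 had no promoter summit. The same IDR summit was 132 bp upstream of R06F6.12 (WBGene00023418), which is transcribed in the opposite direction, and so cannot be assigned to mix-1 alone.

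DPY-27, the SMC protein that replaces SMC-4 in this condensin, is the subunit of the core that is specific to dosage compensation. Its gene (WBGene00001086, III, 3813018 to 3819679, minus strand) had no summit in the promoter window but an IDR peak just outside it, at 3820114 to 3820509. That peak had a signal of 76.8, ranked 1485 and peaked 633 bp upstream of the only annotated dpy-27 start. The replicates placed it at the same point, with a signal of 39.0 in replicate 1 (rank 1433, 634 bp upstream) and 39.4 in replicate 2 (rank 1647, 633 bp upstream). Of the 5′ ends of protein-coding genes within 2000 bp, the dpy-27 start was the nearest to this summit. Non-coding genes were not searched. The dpy-27 and mix-1 peaks thus had close signals in the IDR list, and the window limit of 500 bp decided that mix-1 was counted and dpy-27 was not.

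No list had a promoter summit at dpy-26 or dpy-28, and only replicate 2 and the pooled list had one at capg-1. These genes encode the non-SMC subunits of the core, which are shared with mitotic condensin. CAPG-1 has HEAT repeats, as does DPY-28, and DPY-26 is the kleisin that closes the ring. At capg-1 (WBGene00009254, I, 7634492 to 7639785, minus strand) the signal was 31.0 in replicate 2 (rank 2573, 430 bp upstream) and 40.3 in the pooled list (rank 4874, 363 bp upstream). The −log10 q of the replicate 2 summit was 1.04. The nearest replicate 1 summit was 19.0 kb from the capg-1 start. The gene dpy-26 (WBGene00001085, IV, 12445801 to 12451335, minus strand) was the only member without a summit of any list in its window or gene body. Its nearest summit was 3.54 kb upstream in the pooled list, and its nearest IDR summit was 47.0 kb away.

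The gene dpy-28 (WBGene00001087, III, 10763131 to 10777076, plus strand) begins 109 bp after the end of tasp-1 (WBGene00010480), which is transcribed in the same direction and encodes a protease of the taspase family. In nematodes, closely spaced genes on the same strand are often transcribed together as an operon from the promoter of the first, and their downstream transcripts are then made by trans-splicing. The annotation used does not mark operons. A strong IDR peak was present at the start of tasp-1, at 10759101 to 10759390, with its summit 58 bp upstream of that gene. Its signal was 585 in the IDR list (rank 13), 275 in replicate 1 (rank 15) and 317 in replicate 2 (rank 11). The summit was 3.88 kb upstream of the dpy-28 start and was not counted for dpy-28. Of the members, dpy-28 alone had a same-strand neighbour this close upstream; the next such gap was 562 bp, between capg-1 and F26A3.1.

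**Figure D3:**
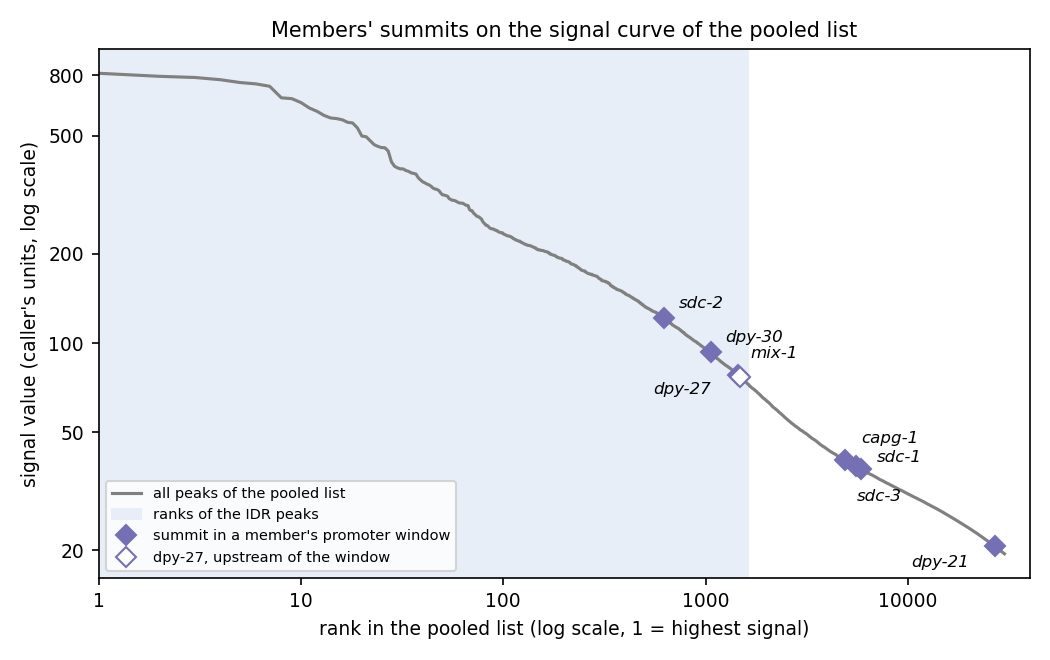
Signal value against rank for all 30000 peaks of the pooled list, on log axes, with the promoter summits of members marked as filled diamonds and the dpy-27 summit upstream of its window as an open one; the shaded ranks are those of the IDR peaks. The diamonds of sdc-2, dpy-30, mix-1 and dpy-27 lie between ranks 624 and 1485, those of capg-1, sdc-1 and sdc-3 between 4874 and 5854, and that of dpy-21 at 26860.

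The members' signals were moderate within the lists. The highest promoter signal per gene had a median of 93.0 over the 3 members with an IDR promoter summit, against 110 over the 1338 genes with one, whose values ran from 72.6 to 793. By this measure sdc-2 ranked 553, dpy-30 ranked 921 and mix-1 ranked 1231 of 1338. In the pooled list the median was 40.3 over the 7 members with a promoter summit, against 33.5 over 6618 genes with one. The edge of the IDR list was at a signal of 72.6, so mix-1 and dpy-27 were just inside it. The nearest members below it, capg-1, sdc-1 and sdc-3, were well apart from the edge, with pooled signals between 37.5 and 40.3. In all 3 input lists the order of sdc-2 and dpy-30 was the same, and each replicate gave sdc-2 a higher rank than any other member.

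The genes whose promoter peaks were most like that of sdc-2 in both replicates were looked up among 1321 genes, by the distance between log2 signals over the 2 replicates. The nearest were aha-1 (WBGene00000095), the ortholog of the mammalian ARNT factor, and C25A1.15 (WBGene00007713), which share a peak, at a distance of 0.02. That peak had a signal of 53.7 in replicate 1 and 73.1 in replicate 2, against 53.0 and 73.3 at sdc-2. The next was aipl-1 (WBGene00010685), with 52.1 in replicate 1, 73.0 in replicate 2 and a distance of 0.03. All 3 are autosomal.

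No member had an IDR summit in its gene body, as 1.67% of all genes did. Gene bodies did hold summits of the input lists, which include background regions. In replicate 1, 5 members had a body summit, against 18.1% of all genes. The count was 4 in replicate 2, against 39.4% of all genes, and 7 in the pooled list, against 39.5%. The members are long, with a median of 7.92 kb against 2.03 kb for all protein-coding genes; the part of length in these counts was not tested. Of the 16 body summits in the pooled list, 7 were in dpy-21, with signals between 20.7 and 28.1, where replicate 1 had none.

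The body summit of mix-1 recurred in each input list near the 3′ end of the gene, 16028, 16002 and 15992 bp downstream of the start in replicate 1, replicate 2 and the pooled list. Its signal was 22.1 in replicate 1 (rank 4681), 23.6 in replicate 2 (rank 4734) and 41.7 in the pooled list (rank 4471). In replicate 1 this was slightly higher than the promoter summit of the same gene, at 21.2, and in replicate 2 it was lower, against 56.7. A body summit of dpy-27, in a coding exon, was listed in replicate 1 (signal 22.2, 957 bp downstream) and in the pooled list (signal 27.2, 973 bp downstream), and not in replicate 2. In dpy-28 there was 1 body summit in replicate 1, 5 in replicate 2 and 3 in the pooled list, with pooled signals between 20.5 and 24.7.

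The motifs were searched on both strands in the 101 bases around each summit, and the same windows were read around 29773 transcript starts. GAGAGA was in the sdc-2 sequence, as its reverse complement, and was at 28.1% of the 1611 nuclear IDR summits and 7.23% of the starts. GCGTCTC was in the dpy-30 sequence and was at 11.9% of the summits and 0.974% of the starts. TTGCAC was also in the dpy-30 sequence and was at 7.88% of the summits and 3.71% of the starts. Matches to GAGAGA and to the reverse complement of GCGTCTC can overlap. The mix-1, dpy-27 and tasp-1 sequences held none of the 8 motifs, and none of the 5 sequences held the motifs that follow. CGAGACC was at 6.83% of the summits and 0.725% of the starts. For GGGCGG the shares were 6.58% and 2.2%, and for AGGTCA, a core recognised by many nuclear receptors, 1.8% and 2.43%. For TGATAA they were 2.98% and 10.3%, and for TATAAA 5.28% and 13.7%. The GC content of the sequences was 42.6% at sdc-2, 46.5% at dpy-30, 42.6% at mix-1, 51.5% at dpy-27 and 58.4% at tasp-1, against a median of 46.5% over all nuclear IDR summits. A match describes the letters of the window only.

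Genes of related machinery were counted in 7 lists with 58 genes in all. IDR promoter summits were present at 16 of the 58, or 27.6%, against 6.70% of all genes. Cohesin, the ring complex that holds sister chromatids together, and its loaders and regulators had an IDR promoter summit at 7 of 12. The count was 4 by the nearest gene within 2000 bp, against 6.62% of all genes. It was also 4 among the IDR peaks of higher signal, against 3.54%. The strongest were at scc-2, which encodes a loader subunit (signal 206, 156 bp upstream), and wapl-1, which encodes a release factor (signal 193, 169 bp upstream). The others were at evl-14, which encodes the PDS5 regulator (145), scc-1, which encodes a kleisin (139), mau-2, which encodes the other loader subunit (101), coh-1, another kleisin gene (92.9), and smc-3, which encodes an SMC arm (84.6). The peaks at wapl-1, evl-14, scc-1 and smc-3 also lay in the windows of other genes, namely htz-1, dcn-1, rpn-5, and both mib-1 and gly-9. At smc-3 the signal was 65.2 in replicate 1, above that list's median of 20.9. In replicate 2 it was 14.6, below that list's median of 15.3. Of the 4 other condensin subunit genes, smc-4, capg-2, hcp-6 and kle-2, 0 had an IDR promoter summit. A pooled-list one was present at 1 of the 4, against 33.1% of all genes. In replicate 1 the count was 2 of the 4, against 19.0%, and in replicate 2 it was 2 of the 4, against 32.7%. With the window of 1000 bp upstream, kle-2 had an IDR summit, as did 8.08% of all genes. These counts were not tested against each other.

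COMPASS and related genes, which include partners of DPY-30, had an IDR promoter summit at 3 of 9 and a pooled-list one at 8 of 9. The shares of all genes were 6.70% and 33.1%. By the nearest gene, 1 of 9 had an IDR peak, ash-2, against 6.62% of all genes. The highest was at set-16, which encodes a methyltransferase of the MLL type (signal 382, rank 33), and its peak was also in the window of drr-2. The others were at ash-2 (131), shared with Y17G7B.20, and at hcf-1 (85.3), shared with swd-2.2. The sex determination genes, which include xol-1 and her-1, had one at 0 of 11, and a pooled-list one at 3 of 11, near the share of all genes. Among genes for methylation of H4K20 and H3K9 and for chromatin anchoring, 2 of 9 had an IDR promoter summit. They were set-4, which encodes a methyltransferase for the histone H4 residue that DPY-21 demethylates (signal 138, 266 bp upstream), and lin-61, which encodes a reader of methylated histone H3 (signal 144) and shares its peak with bub-1. With the narrow window set-4 alone was left, against 5.12% of all genes. By the nearest gene the count was 2, but with cec-4 in place of lin-61, against 6.62%.

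Subunits of the dosage compensation complex are modified with SUMO, and 2 of 8 SUMO pathway genes had an IDR promoter summit, against 6.70% of all genes. The 2 genes were smo-1, which encodes SUMO itself (signal 93.3, 436 bp upstream), and ubc-9, which encodes the conjugating enzyme (signal 96.6, 275 bp upstream). The count was 1 (ubc-9) with the narrow window, against 5.12% of all genes. It was 0 among the IDR peaks of higher signal, against 3.54%. Among the genes of MES and MRG proteins, germline chromatin regulators that affect X-linked genes, 2 of 5 had an IDR promoter summit, against 6.70% of all genes. They were mes-2, which encodes the methyltransferase of the Polycomb-like complex (signal 106, 102 bp upstream), and mrg-1, which encodes a chromodomain protein (signal 212, 230 bp upstream) and shares its peak with spcs-2. By the nearest gene mes-2 alone was left, against 6.62% of all genes. The 3 members with an IDR promoter summit had signals of 121, 93.0 and 78.0, within the range of 84.6 to 382 in these lists except for mix-1, which was below it.

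**Figure D4:**
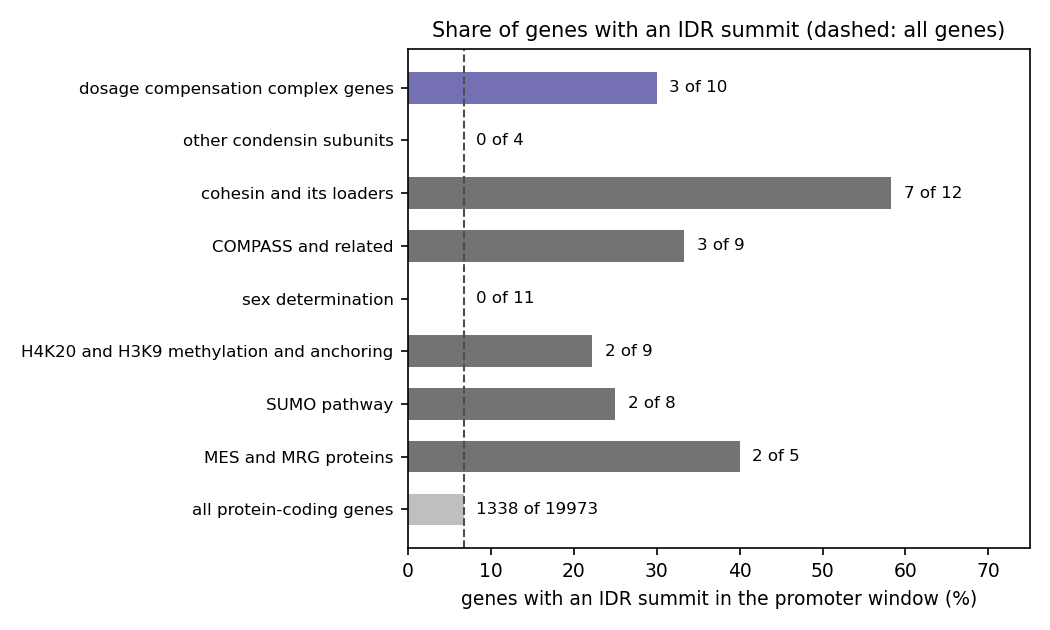
Percentage of genes with an IDR summit in the promoter window for the dosage compensation complex genes, for the 7 lists of related genes and for all protein-coding genes, which the dashed line repeats; the counts stand beside the bars. The members' bar, 3 of 10, lies above the 6.70% of all genes and below the bars of the cohesin, COMPASS and MES and MRG lists, and the bars of the other condensin subunits and of sex determination are at 0.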

How the data were processed

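The peak lists of both replicates, the pooled list and the IDR list on ce11 were used as deposited. Each peak carries a signal value and, in the replicate and IDR lists, a −log10 q-value, both deposited by the authors without scaling between lists. In the pooled list that column holds values below 0, so it was treated as a score of unknown meaning as deposited and not used. Per the deposited text listings, a control alignment entered the calling of the input lists. The alignment and peak-calling software and the IDR threshold were not given in the sources used here. No peak ended beyond a WBcel235 chromosome.

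Summits, gene bodies and transcript starts of Ensembl release 115 were compared in Python 3.11.15 with numpy 2.4.6 and pandas 2.3.3. In the IDR list 94.2% of summits were the peak midpoint. Lists on ce10 were not used. The members, lists and motifs were chosen with earlier results of these data known. Named genes were all members, list genes with an IDR promoter summit, genes sharing a member's summit and the 3 genes most like the strongest member; tasp-1, rnp-1, F26A3.1 and the list genes sharing peaks were added after their values were seen. Alternatives were other windows, midpoints, overlap rules, the nearest gene, stricter lists and each replicate alone. As a check of the counting step only, 200 of 200 promoter summits planted among 19973 genes were found again. This says nothing about peak detection or about the members.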

Additional observations from a re-analysis of the deposited data

How the results depend on the processing

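The count of members with an IDR promoter summit was 3. It was 1 with the window of 300 bp upstream and 100 bp downstream, where mix-1 was left, and 1 among the 813 IDR peaks of higher signal, where sdc-2 was left. It was 4, with dpy-27 added, with 1000 bp upstream, with any overlap of peak and window and with the nearest gene within 2000 bp. To leave out a replicate, the 1626 highest peaks of the other one took the place of the IDR list. The count was then 2 without replicate 2, with mix-1 lost, and 3 without replicate 1. The share of all genes was 3.54% among the IDR peaks of higher signal. It was 5.12% with the narrow window, 8.08% with 1000 bp upstream and between these values otherwise. With the narrow window, 3 members had a pooled-list promoter summit, against 7, and 3 had one in replicate 1, against 5. The shares of all genes in these 2 lists were not counted with that window, so these counts show only how the members' numbers moved. Counting any overlap with a gene body gave 1 member with an IDR peak, mix-1, against 0, again without a share of all genes. Genes of the related lists with an IDR promoter summit numbered 10 with the nearest gene and 10 among the peaks of higher signal, against 16. The matching shares of all genes were 6.62% and 3.54%, against 6.70%. Using 5′ ends of protein-coding transcripts only, chosen after the data were seen, gave 3 members and 6.69% of all genes. By list, the lowest and highest counts over the alternatives were 4 and 7 for cohesin, 1 and 3 for COMPASS, 1 and 2 for H4K20 and H3K9 methylation, 0 and 2 for SUMO, 1 and 2 for MES and MRG, 0 and 1 for the other condensin subunits (kle-2) and 0 and 0 for sex determination. Depth is unknown, so weak summits at sdc-1, sdc-3, dpy-21 and capg-1 cannot be set against a detection limit.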
